A study of Mus musculus with 10 samples.

Results

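Toll-like receptors are germline-encoded sensors of microbial lipids, proteins and nucleic acids, and B cells are unusual among lymphocytes in carrying several of them beside the antigen receptor. Described here are 10 genes of that system, chosen by name as Tlr1, Tlr3, Tlr4, Tlr6, Tlr7, Tlr9, Unc93b1, Cd180, Ly86 and Myd88. All 10 were found among the 17658 genes of the deposited table. They were followed in 10 libraries of magnetically enriched B cells from spleen and lymph node of C57BL/6 mice aged 10 weeks. Mice were Nr4a1+/+ (wild type) or Nr4a1-/- (knockout), where Nr4a1 encodes Nur77, an orphan nuclear receptor induced by antigen receptor signals. One library of each genotype came from cells that received no agent. The other 4 of each genotype, lettered A to D, came from cells exposed for 2 hours to anti-IgM (10 μg/mL), an antibody that engages the antigen receptor by crosslinking it. The labels do not say whether a letter is a separate mouse, so p-values measure the spread between these libraries, which may be technical. The labels do not describe how the knockout allele was made.

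TLR7, TLR9 and TLR3 sense nucleic acids inside endosomes, and UNC93B1 is the chaperone that carries them there from the endoplasmic reticulum. TLR1 and TLR6 sit at the cell surface and recognise lipopeptides together with TLR2, while TLR4 recognises lipopolysaccharide with its partner MD-2, the product of Ly96. CD180, also called RP105, is a TLR4-like surface protein that lacks the signalling domain and is held at the surface by the product of Ly86, called MD-1. MYD88 is an adaptor through which all the Toll-like receptors named here except TLR3 signal.

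Levels are given as FPKM, which scale the fragments of a gene to its length and to the fragments of the library, so they can be compared between genes. Two-sided tests used log2(FPKM + 1) and limma on the 10225 genes averaging 1 FPKM or more, and that scale understates the change of low genes. A gene was called between genotypes at a Benjamini-Hochberg adjusted p under 0.05. With 9 of the 10 genes tested, Tlr3 was the one below that mean.

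The cells carried the RNA of B cells. The 7 B cell markers examined summed to 4273 and 4056 FPKM without stimulation and to between 1716 and 1845 FPKM after it, while Cd3e, Cd3d, Cd3g, Cd4 and Cd8a of T cells stayed under 1 FPKM in every library. Of the 10 myeloid markers, 0 were at 0 in every library, and their sum was uneven among the stimulated libraries. It was 162 FPKM in wild-type library B and 57.7 to 61.3 FPKM in the other 3. With the knockout label it was 84.4 and 118 FPKM in libraries A and B and 37.6 and 40.4 FPKM in C and D. Nr4a1 itself was at 126 FPKM in each unstimulated library, at 744 to 856 FPKM in stimulated wild type and at 660 to 760 FPKM in the stimulated libraries labelled knockout. The log2 difference was -0.20 (limma adjusted p = 0.0432), the 2 ranges overlapped, and the gene's total RNA did not check the labels, so the directions that follow rest on the labels alone. In such bulk samples, fewer cells of a type and less RNA per cell cannot be told apart.

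The receptor system lay on several chromosomes of the mm10 assembly. Cd180 (chr13:102693558-102739629) and Ly86 (chr13:37345208-37419036) are on chromosome 13, Tlr9 (chr9:106222598-106226883) and Myd88 (chr9:119335934-119341411) on chromosome 9, and Tlr7 (chrX:167304929-167330558) on chromosome X. Tlr1 (chr5:64924679-64933563) and Tlr6 (chr5:64952031-64960097) are neighbours on the minus strand of chromosome 5. The 2 share 454 of the 50-base stretches of their transcripts, so fragments from those stretches could be credited to either, and Tlr6, which is far lower, is the more uncertain value. Unc93b1 (chr19:3935186-3949340), Tlr4 (chr4:66827584-66930284) and Tlr3 (chr8:45395665-45411080) are each on a chromosome of their own. Annotated exons on the opposite strand overlap 11.3% of the exonic bases of Myd88 (Acaa1a), 7.32% of those of Tlr3 (Gm45542) and 4.04% of those of Cd180 (Mast4). The use of strand in counting is not given in the sources used here.

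The bases just before the transcription starts of Cd180, Tlr1 and Tlr9 are shown first, because these are the 3 genes whose levels differed between genotypes. Each run is the 250 bases upstream of a RefSeq start, 1 of the 2 listed for Cd180 and for Tlr1 (GRCm38.p6, the mm10 sequence), read on the gene's own strand. They are Cd180 at chr13:102693308-102693557 (plus strand), Tlr1 at chr5:64933559-64933808 (minus strand) and Tlr9 at chr9:106222348-106222597 (plus strand). Capitals mark matches to any of 6 motifs named afterwards.
Cd180: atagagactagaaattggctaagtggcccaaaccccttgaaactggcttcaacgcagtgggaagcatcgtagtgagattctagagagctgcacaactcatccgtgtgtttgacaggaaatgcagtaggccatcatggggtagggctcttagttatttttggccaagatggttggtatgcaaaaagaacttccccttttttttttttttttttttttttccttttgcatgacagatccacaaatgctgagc
Tlr1: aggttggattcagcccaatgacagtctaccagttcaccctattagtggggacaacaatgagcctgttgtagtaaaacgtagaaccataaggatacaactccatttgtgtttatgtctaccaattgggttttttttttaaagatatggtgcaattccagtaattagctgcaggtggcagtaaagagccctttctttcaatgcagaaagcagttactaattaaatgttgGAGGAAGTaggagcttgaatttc
Tlr9: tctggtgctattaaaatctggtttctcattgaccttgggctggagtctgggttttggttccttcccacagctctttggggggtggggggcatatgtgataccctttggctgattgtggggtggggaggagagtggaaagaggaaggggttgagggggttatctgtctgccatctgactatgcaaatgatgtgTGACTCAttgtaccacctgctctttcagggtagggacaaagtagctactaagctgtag
The motifs were searched on both strands of the 250 bases before 32851 starts, and RefSeq entries were matched for 7 of the 10 genes (not for Tlr4, Tlr7 and Unc93b1). AAAGGTCA, the element that Nr4a receptors bind as monomers, is held by 1.34% of all these promoters and by 0 of the 7 genes. The AP-1 motif TGANTCA is held by 6.75% of promoters and, of the 7 genes, by Tlr9, from 58 to 52 bases before its start. The ETS motif GAGGAAGT is held by 2.44% of promoters and by Tlr1 at 1 of its 2 starts, the one shown, from 23 to 16 bases before it. The NF-kB consensus is held by 3.90% of promoters and by Tlr3. The Egr motif GCGNGGGCG (4.70% of promoters) and the ETS-IRF composite motif (2.30%) were found in 0 of the 7. No 2 of the matches found overlap. Of the stretches shown, that of Tlr9 holds 0 CG dinucleotides, that of Tlr1 1 and that of Cd180 3, where the median promoter holds 6. Those of Ly86, Myd88 and Tlr3 hold 11, 9 and 6. The other Tlr1 start has 8, and the 2 Tlr6 starts have 4 and 6. A match is a run of letters, not a bound site.

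After anti-IgM, Cd180, Tlr1 and Tlr9 were higher in the knockout-labelled libraries than in wild type, and 0 of the tested genes of the system were called lower. The difference was largest for Cd180, at 1.37-fold on mean FPKM, and was 1.25-fold for Tlr1 and 1.14-fold for Tlr9. Of all tested genes 9.72% were called, 3.91% higher and 5.81% lower. That split turned with the scaling, from 400 higher and 594 lower to 559 and 377 with median-of-ratios scaling and to 478 and 439 after quantile normalization, while the calls of Cd180, Tlr1 and Tlr9 held. The median log2 difference was 0.096 over the 9 genes and -0.024 over all tested genes.

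Cd180 measured 64.9, 69.8, 66.0 and 69.0 FPKM across wild-type libraries A to D once stimulated, against 95.95, 96.7, 89.6 and 86.7 FPKM across their knockout-labelled counterparts. The lowest of the latter lay well above the highest of the former. The means were 67.4 ± 2.36 and 92.2 ± 4.85 FPKM (SD, n = 4 each), a log2 difference of 0.45 (SE 0.041, limma adjusted p = 0.000155). The call held when each stimulated library was left out, with log2 differences from 0.42 to 0.47. Before stimulation the 2 genotypes stood at 53.8 FPKM (wild type) and 56.9 FPKM (labelled knockout), single libraries with no replicate check.

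Ly86, whose product CD180 needs to reach the surface, did not pass. It measured 97.6, 110.0, 109.6 and 102.3 FPKM across the wild-type libraries, against 107.9, 111.4, 114.8 and 114.0 FPKM across the knockout-labelled libraries, and the groups overlapped. The log2 difference was 0.096 (95% interval 0.0032 to 0.19, unadjusted; limma adjusted p = 0.209). The ratio of Ly86 to Cd180 within a library does not depend on how libraries are scaled. It was 1.50, 1.58, 1.66 and 1.48 in stimulated wild type and 1.125, 1.15, 1.28 and 1.31 in the knockout-labelled libraries. The 2 sets of ratios do not overlap, and the partner gene was the more abundant of the pair in all 8 libraries.

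Tlr1 measured 29.7, 24.3, 28.4 and 28.2 FPKM across wild-type libraries A to D once stimulated, against 35.3, 33.0, 33.6 and 36.2 FPKM across their knockout-labelled counterparts, again with no overlap. Its means were 27.6 ± 2.30 and 34.5 ± 1.46 FPKM (SD, n = 4 each), a log2 difference of 0.31 (SE 0.058, limma adjusted p = 0.00857). Wild-type library B, which held the most myeloid RNA, was the lowest for Tlr1. Without it the log2 difference was 0.26 and the limma adjusted p was 0.00700.

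Tlr9 measured 28.0, 27.9, 27.5 and 27.4 FPKM across the stimulated wild-type libraries, against 32.2, 33.0, 29.9 and 30.7 FPKM across the knockout-labelled libraries. The wild-type libraries lay within 1 FPKM of each other and all were below the 4 libraries labelled knockout. The means were 27.7 ± 0.295 and 31.4 ± 1.41 FPKM (SD, n = 4 each), a log2 difference of 0.18 (SE 0.035, limma adjusted p = 0.0110). In the unstimulated libraries, 1 of each genotype and so without a test, Tlr9 stood apart, with 15.1 FPKM for wild type and 25.9 FPKM for the knockout label. That single-library difference of 0.74 on the log2 scale is larger than the one after stimulation.

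The other nucleic acid sensor of this compartment, Tlr7, did not pass between genotypes. It measured 33.4, 35.6, 38.1 and 33.0 FPKM across the stimulated wild-type libraries, against 36.3, 34.4, 37.5 and 38.5 FPKM across the knockout-labelled libraries, with a log2 difference of 0.065 (95% interval -0.050 to 0.18, limma adjusted p = 0.515). Unc93b1, the chaperone of both, was at 102.7, 90.2, 90.3 and 100.4 FPKM in wild type and, with the knockout label, at 100.4, 106.4, 93.9 and 89.4 FPKM, a log2 difference of 0.023 (95% interval -0.12 to 0.16, limma adjusted p = 0.871). Both genes overlapped between genotypes.

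Tlr6 was low, with 1.52, 1.45, 1.23 and 1.46 FPKM across the stimulated wild-type libraries, against 1.59, 1.63, 2.09 and 1.69 FPKM across the knockout-labelled libraries. The 2 groups did not overlap, but the log2 difference of 0.19 missed the threshold (SE 0.079, limma adjusted p = 0.207). With Cd180, Tlr1 and Tlr9 it makes 4 of 9 tested genes without overlap between the 4 and 4 libraries, all higher in the knockout-labelled ones. Of all tested genes 15.5% had no overlap (5.96% higher and 9.57% lower). The genes of the system were chosen with earlier results of these data known. Tlr6 also shares 454 50-base stretches with Tlr1, so the separation of Tlr6 may not be independent of that of Tlr1. Tlr4 was lower still, with 1.13, 1.01, 1.04 and 0.99 FPKM across the wild-type libraries, against 1.05, 1.36, 0.88 and 1.11 FPKM across the knockout-labelled libraries. Its log2 difference was 0.036 (95% interval -0.15 to 0.22, limma adjusted p = 0.851). The highest Tlr4 value after stimulation, 1.36 FPKM, was in library B labelled knockout, one of the 2 libraries with the most myeloid RNA. Wild-type library B, which held the most myeloid RNA, was at 1.01 FPKM. The part of myeloid cells in these low values was not tested. Tlr3 stayed between 0.05 and 0.10 FPKM in all 8 stimulated libraries.

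Myd88, the shared adaptor, measured 24.6, 23.5, 23.2 and 22.3 FPKM across the stimulated wild-type libraries, against 22.2, 23.8, 23.0 and 21.3 FPKM across the knockout-labelled libraries. Its log2 difference was -0.051 (95% interval -0.15 to 0.045, limma adjusted p = 0.544). The groups overlapped, as they did for Ly86, Tlr7, Unc93b1 and Tlr4. A p that misses the threshold does not show that the genotypes were alike, and the intervals give the sizes that these 4 and 4 libraries allow.

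**Figure D1:**
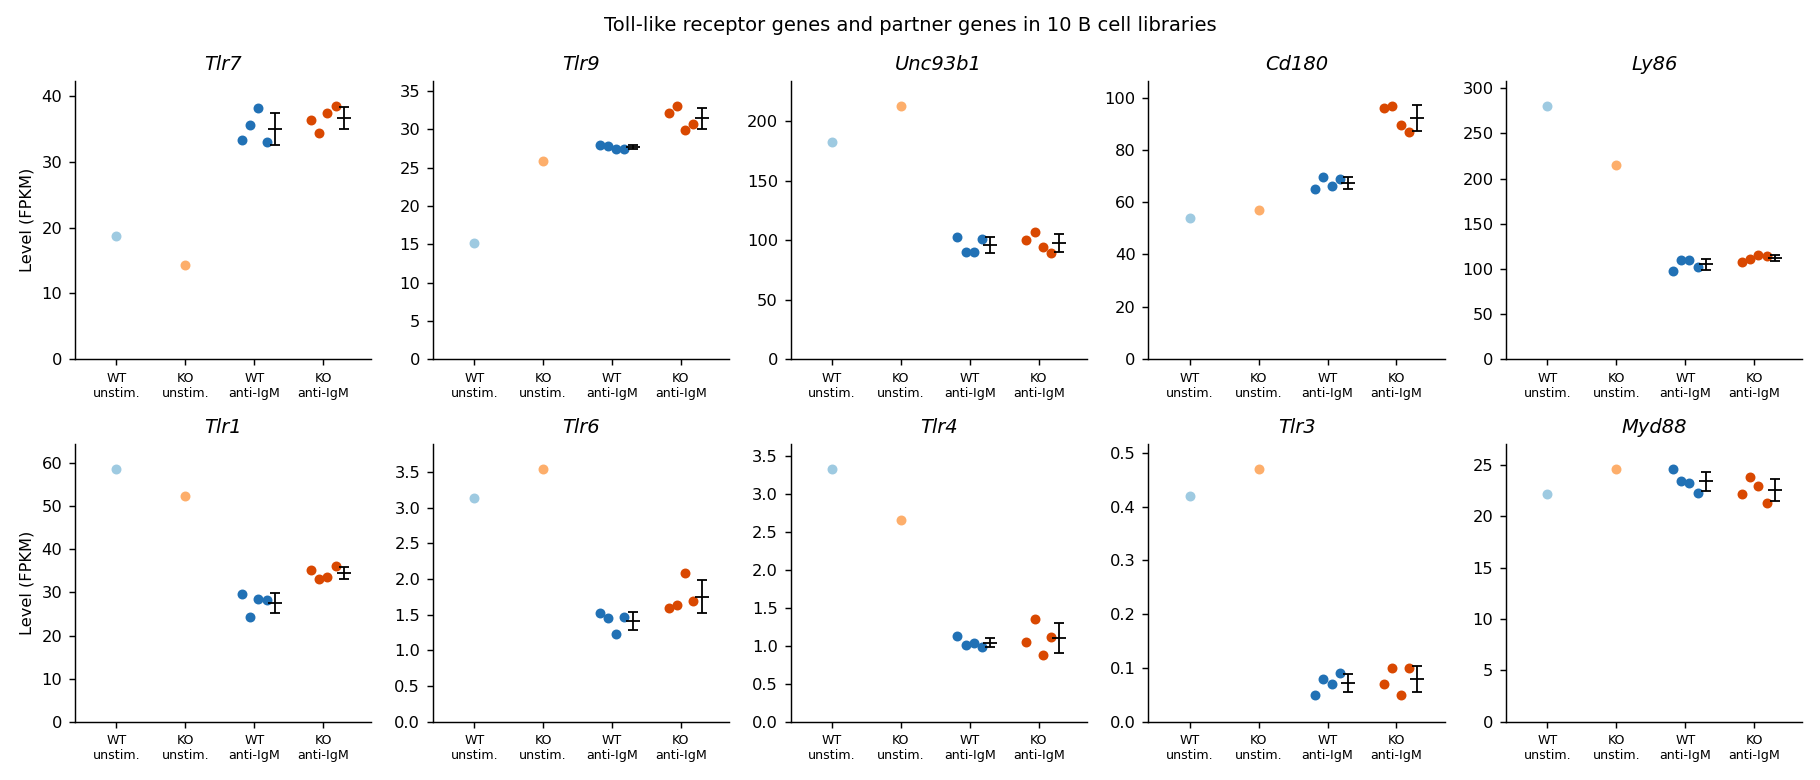
FPKM of the 10 genes in each library, with 1 panel per gene and a linear axis from 0. Points are libraries (1 unstimulated and 4 stimulated of each genotype), and bars beside the stimulated groups are mean ± SD (n = 4). The 4 points labelled knockout lie above the 4 wild-type points for Cd180, Tlr1, Tlr9 and Tlr6.

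**Figure D2:**
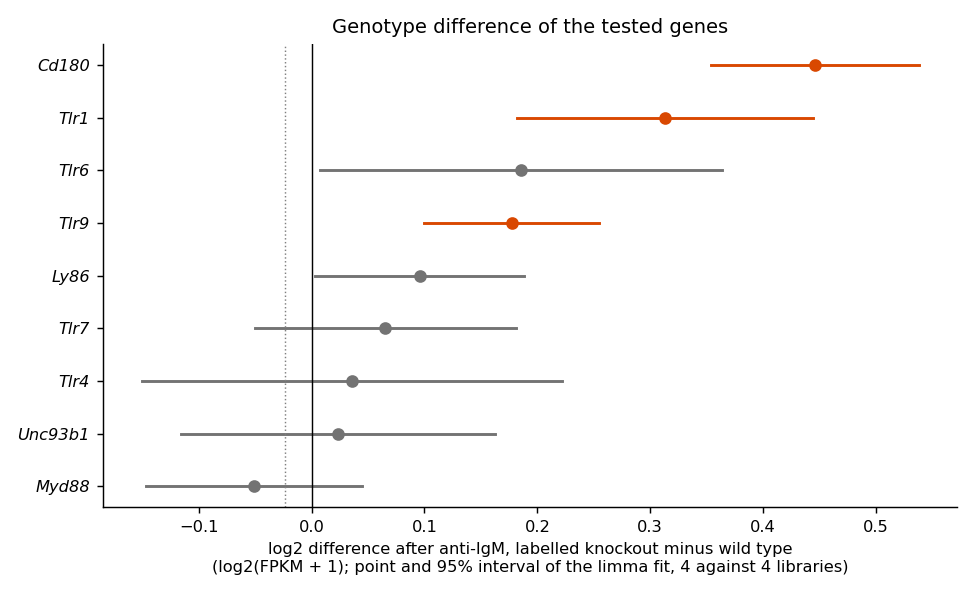
Log2 difference after anti-IgM, labelled knockout minus wild type, for the 9 tested genes, with the unadjusted 95% interval of the limma fit. Orange marks the genes called at an adjusted p under 0.05, and the dotted line is the median of all tested genes (-0.024). The intervals of Tlr6 and Ly86 also lie above 0, but neither passed the adjustment over all genes.

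Marker lists of B cell subsets were set beside these differences. The 7 marginal zone markers summed to between 192 and 211 FPKM in stimulated wild type and to between 170 and 199 FPKM in the knockout-labelled libraries, with Cr2 and Dtx1 called lower and S1pr3 called higher. The 4 follicular markers found summed to between 565 and 589 FPKM and to between 603 and 635 FPKM, with Cd55 called higher. Of other lists, Cd79b of the B cell list was called lower, as was Flt3 of conventional dendritic cells, while their Zbtb46 and the plasma cell gene Prdm1 were called higher. The T cell list summed to between 44.6 and 49.0 FPKM for wild type and between 65.3 and 67.6 FPKM in the knockout-labelled libraries, nearly all of it Lck, with Cd3e at or near 0. The part of these cell types in the differences of Cd180, Tlr1 and Tlr9 was not tested. Of the 10 myeloid markers 0 were called between genotypes, but their median log2 difference was -0.225, where that of all tested genes was -0.024.

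Stimulation moved the genes of the system in opposite directions. RNA of the endosomal sensor Tlr7 rose and that of its chaperone Unc93b1 fell, and Cd180 rose while its partner Ly86 fell. The stimulation fit compared the 8 stimulated with the 2 unstimulated libraries, with genotype as a term. With the adjusted p threshold of 0.05 plus a minimum size of 1 on the log2 scale, 1 of the 9 tested genes was called higher (Tlr7) and 2 were called lower (Ly86 and Unc93b1), where 20.3% of all tested genes were called (7.94% higher, 12.4% lower). The 812 higher and 1266 lower calls over all genes became 1155 and 801 with median-of-ratios scaling, 1030 and 944 after rescaling to the same sum (TPM) and 985 and 917 after quantile normalization. At an adjusted p under 0.05 alone, 3 were higher (Tlr7, Tlr9 and Cd180) and 5 lower (Ly86, Unc93b1, Tlr4, Tlr1 and Tlr6), where 78.9% of all tested genes passed (31.2% higher, 47.7% lower). Over all tested genes the median change was -0.17 on the log2 scale. The changes and tests of single genes were taken against 0, not against that median. With median-of-ratios scaling the median change was 0.035, the 8 genes kept their directions, and 0 were lower by at least 1.

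Tlr7 started from 18.7 FPKM (wild type) and 14.4 FPKM (knockout-labelled) in the unstimulated libraries. After anti-IgM the mean was 35.0 ± 2.38 FPKM for wild type and 36.7 ± 1.73 FPKM in the knockout-labelled libraries (SD, n = 4 each), or 1.87 times and 2.56 times the starting level. All 8 stimulated libraries lay above both unstimulated ones. The fitted log2 change was 1.08 (SE 0.088, limma adjusted p = 4.95e-07). It was 0.87, below the size asked of a call, when the unstimulated knockout-labelled library was left out.

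Tlr9 rose by a log2 change of 0.55 (standard error 0.096 by limma, adjusted p = 0.000284), under the size asked of a call. From the levels above, the stimulated mean was 1.83 times the unstimulated level in wild type and 1.21 times that in the knockout-labelled libraries. Unc93b1 went the other way, from 182 and 212 FPKM without stimulation to means of 95.9 ± 6.61 and 97.5 ± 7.47 FPKM (SD, n = 4 each). These are 52.6% and 45.9% of the starting levels, a log2 change of -1.02 (standard error 0.075 by limma, adjusted p = 2.08e-07). The ratio of Tlr9 to Unc93b1 was 0.083 and 0.12 in the unstimulated libraries and between 0.27 and 0.34 in the stimulated ones.

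Cd180 was higher in all 8 stimulated libraries than in both unstimulated ones, with a log2 change of 0.50 (standard error 0.074 by limma, adjusted p = 7.21e-05). The stimulated mean was 1.25 times the unstimulated level in wild type and 1.62 times that in the knockout-labelled libraries. Ly86 fell from 280 FPKM to 104.9 ± 6.02 FPKM for wild type and from 215 FPKM to 112 ± 3.10 FPKM in the knockout-labelled libraries (SD, n = 4 each). The log2 change was -1.17 (SE 0.087, limma adjusted p = 2.46e-07). Ly86 RNA stood at 5.21 and 3.77 times Cd180 RNA before stimulation (wild type and labelled knockout) and at 1.125 to 1.66 times after it.

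Tlr1, Tlr4 and Tlr6, which encode surface receptors for bacterial products, fell. Tlr1 started from 58.7 FPKM (wild type) and 52.3 FPKM (knockout-labelled) in the unstimulated libraries, and stimulated means were 47.1% and 66.0% of these levels (log2 change -0.82, SE 0.097, limma adjusted p = 1.16e-05). Tlr4 was at 3.33 and 2.66 FPKM before stimulation and its stimulated means were 31.3% and 41.4% of that (log2 change -0.95, limma adjusted p = 6.05e-06). Tlr6 was at 3.14 and 3.54 FPKM and its means were 45.1% and 49.4% of that (log2 change -0.75, limma adjusted p = 1.31e-05). Tlr3, untested, was at 0.42 and 0.47 FPKM before stimulation. The myeloid list summed to 93.9 and 109 FPKM in the unstimulated libraries. After stimulation it lay between 57.7 and 162 FPKM in wild type and between 37.6 and 118 FPKM in the knockout-labelled libraries. With the minimum size of 1 on the log2 scale, 0 of its 10 genes were called. At an adjusted p under 0.05 alone, S100a8, Adgre1 and Ly6c2 were lower and Cd68 was higher. The part of myeloid cells in the fall of these receptor genes was not tested. In the B cell list 6 of 7 genes were called lower with stimulation at the minimum size of 1, where 12.4% of all tested genes were. Blk of that list rose (log2 change 0.76, limma adjusted p = 3.59e-09).

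Myd88 was at 22.2 and 24.6 FPKM without stimulation, inside the range of the stimulated libraries. Its log2 change was -0.024 (95% interval -0.15 to 0.11, limma adjusted p = 0.725). This value changed sign with the scaling, to 0.13 after TPM rescaling, 0.20 with median-of-ratios scaling (limma adjusted p = 0.00378) and 0.030 after quantile normalization.

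Whether the response differed between genotypes was tested with 4 group means over the 10 libraries. The spread came from the stimulated libraries, so each lone unstimulated library is assumed to vary like them. These values share their libraries with the comparisons above. A positive difference means a change more towards higher levels in the knockout-labelled libraries. Of the 9 tested genes 4 differed upwards (Ly86, Tlr1, Tlr7 and Cd180) and 1 downwards (Tlr9), where 18.9% of all tested genes were called (4.18% upwards, 14.7% downwards). The 427 upward and 1504 downward calls over all genes became 177 and 3460 after TPM rescaling, 443 and 849 with median-of-ratios scaling and 873 and 1210 after quantile normalization. The median of all tested genes was -0.096.

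Tlr9 changed by 0.83 in wild type and by 0.27 in the knockout-labelled libraries on the log2 scale, a difference of -0.56 (SE 0.078, limma adjusted p = 0.00287). The genotypes lay far apart in the unstimulated libraries, at 15.1 and 25.9 FPKM, and closer after stimulation. Ly86 changed by -1.41 in wild type and by -0.93 in the knockout-labelled libraries, a difference of 0.48 (SE 0.092, limma adjusted p = 0.00821). Its genotypes lay apart in the unstimulated libraries, at 280 and 215 FPKM (log2 difference -0.38, labelled knockout minus wild type), and overlapped after stimulation. Tlr9 and Ly86 kept their calls in 18 of 18 alternatives. All of these kept the same lone unstimulated library of each genotype, so the count could not test the dependence on those libraries.

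Cd180 changed by 0.32 in wild type and by 0.69 in the knockout-labelled libraries, a difference of 0.37 (SE 0.092, limma adjusted p = 0.0239). The genotypes lay close together before stimulation, at 53.8 and 56.9 FPKM, and apart after it. The difference for Tlr1 was 0.47 (SE 0.13, limma adjusted p = 0.0332) and that for Tlr7 was 0.43 (SE 0.12, limma adjusted p = 0.0326). For Tlr7 the unstimulated libraries differed by -0.36 on the log2 scale (labelled knockout minus wild type), and the stimulated levels overlapped. The calls of these genes were less stable, with 17 of 18 alternatives for Cd180, 12 for Tlr1 and 10 for Tlr7. After rescaling to TPM, where the median of all genes was -0.25, the limma adjusted p was 0.166 for Cd180, 0.116 for Tlr1 and 0.0880 for Tlr7. With the letter as a replicate block it was 0.0609 for Tlr7.

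For Unc93b1 (-0.20, 95% interval -0.51 to 0.11), Myd88 (-0.19, -0.41 to 0.021), Tlr4 (0.28, -0.14 to 0.69) and Tlr6 (0.052, -0.35 to 0.45) the difference in response did not pass. The ratio of Tlr7 to Tlr9, free of scaling, was 1.24 in the unstimulated wild-type library and 0.553 in the unstimulated knockout-labelled library. After stimulation it lay between 1.19 and 1.39 in wild type and between 1.04 and 1.25 in the knockout-labelled libraries, and those ranges overlap.

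**Figure D3:**
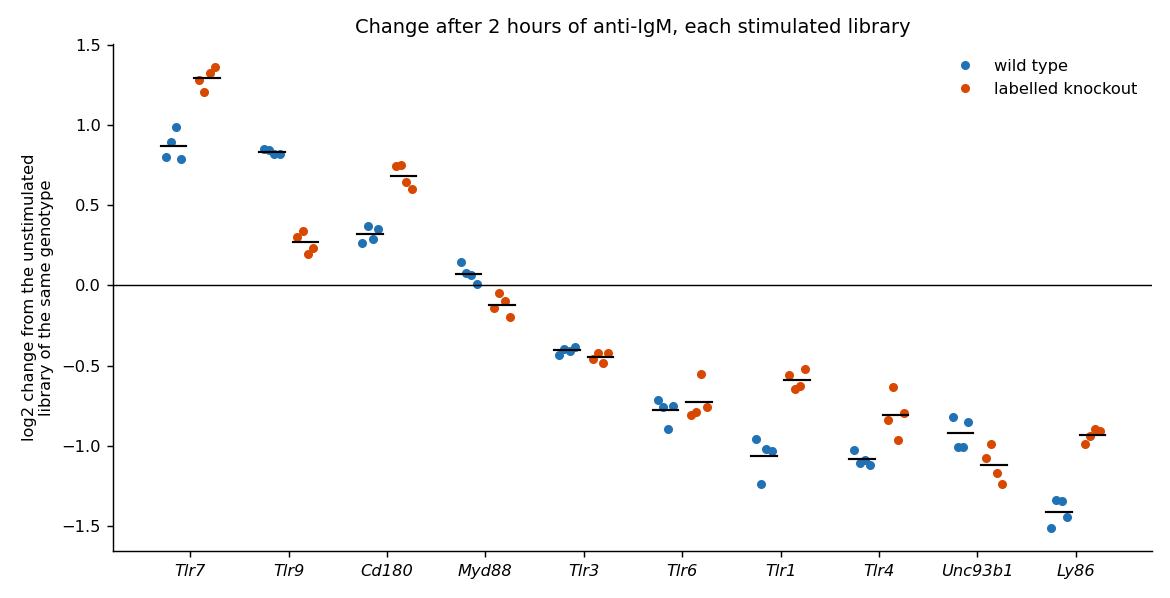
Log2 change of each stimulated library from the unstimulated library of the same genotype, for the 10 genes, on the log2(FPKM + 1) scale. Points are the 4 stimulated libraries of a genotype and short lines their means; the 4 points of a genotype share 1 unstimulated library. The points of the genotypes do not overlap for Tlr9, Ly86, Cd180, Tlr1 and Tlr7, nor for Myd88 and Tlr4, whose differences did not pass the test. Such a gap includes the difference between the unstimulated libraries. The stimulated levels of Ly86, Tlr7, Myd88 and Tlr4 overlap between genotypes. How often all tested genes show such a gap is not given here.

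**Figure D4:**
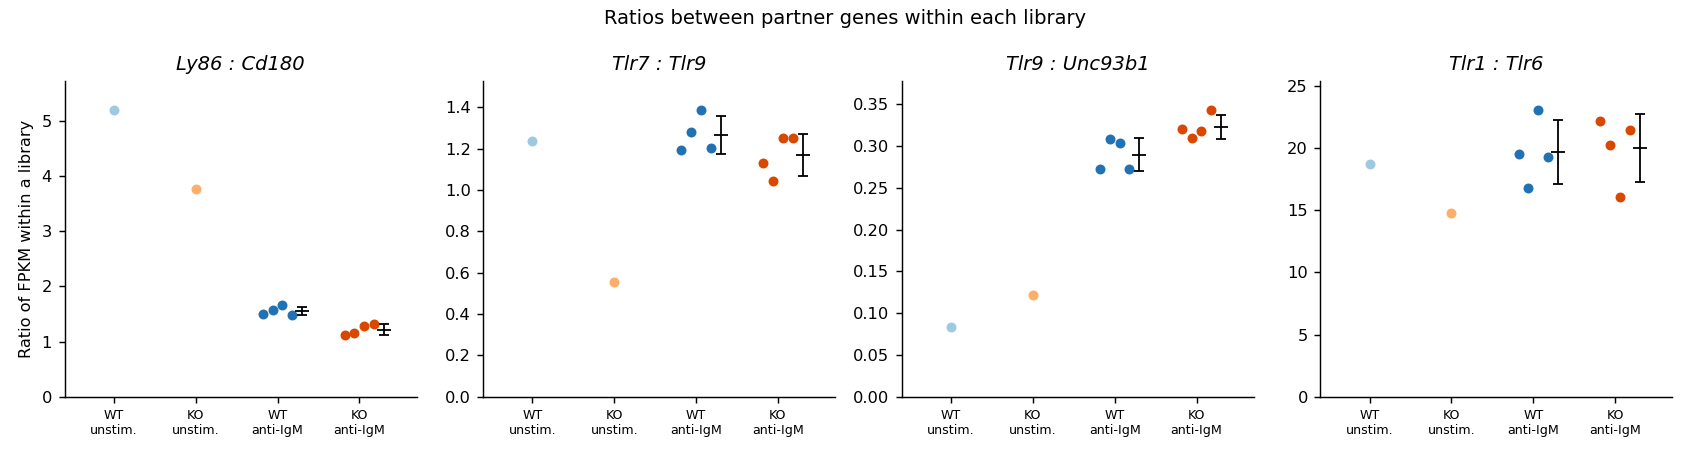
Ratios of FPKM between partner genes within each library, on linear axes from 0. Points are libraries, and bars are mean ± SD of the 4 stimulated libraries of a genotype. The ratio of Ly86 to Cd180 is 5.21 and 3.77 without stimulation and between 1.125 and 1.66 after it, and that of Tlr1 to Tlr6 stays between 14.8 and 23.1.

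The order of the levels was read in the stimulated libraries. In wild type Ly86 and Unc93b1 overlapped at the top and Cd180 stood below them. Tlr7 came next, and Tlr9, Tlr1 and Myd88 followed, with Tlr1 overlapping both of its neighbours. Tlr6, Tlr4 and Tlr3 were last, without overlap between neighbours. In the knockout-labelled libraries Ly86 stood alone at the top and Cd180 overlapped Unc93b1. Tlr1 lay above Tlr9 there and overlapped both Tlr7 and Tlr9, while Myd88 stood below all of them. Tlr6, Tlr4 and Tlr3 were again last, without overlap.

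The genes with the most similar profiles were sought among 7682 genes averaging 5 FPKM or more, by Pearson r of log2(FPKM + 1) over the 10 libraries. The libraries fall into a stimulated and an unstimulated group, so r is a description. For Ly86 they were Zfp119b (r = 0.994), Cd52 (r = 0.994) and Gng10 (r = 0.993). For Cd180 they were Trib2 (r = 0.976), Sp140 (r = 0.966) and AK137525 (r = 0.963). Trib2 was at 16.3 and 18.5 FPKM before stimulation, at 18.5 to 19.9 FPKM in stimulated wild type and at 24.5 to 26.3 FPKM in the knockout-labelled libraries.

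The rest of the pathway was followed through 8 lists that hold 66 genes, all found in the table and 58 of them tested. Between genotypes 5 were called higher and 6 lower, where 3.91% and 5.81% of all tested genes were called. With stimulation 5 were called higher and 5 lower, where 7.94% and 12.4% of all tested genes were. For the difference in response 1 was called upwards and 13 downwards, where 4.18% and 14.7% of all tested genes were. The median log2 difference between genotypes was -0.0015 over the 58 genes.

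The remaining mouse Toll-like receptors were low. Tlr2, the partner of TLR1 and TLR6, was the 1 tested gene of 6, at 5.48 and 5.07 FPKM before stimulation and at means of 3.58 and 3.76 FPKM after it (wild type and labelled knockout), and it was called in neither comparison. Its highest stimulated value, 5.57 FPKM, was in wild-type library B, where Cd14 was also highest at 17.6 FPKM. Tlr5, Tlr8, Tlr11, Tlr12 and Tlr13 had means under 1 FPKM over the libraries. Of the accessory genes for ligand delivery 4 of 5 were tested, and Cd36, a scavenger receptor for lipids, was called lower in the knockout-labelled libraries (22.5 ± 2.93 and 14.5 ± 1.68 FPKM, SD, n = 4 each; log2 difference -0.59, limma adjusted p = 0.00459). Ly96 was between 3.77 and 4.78 FPKM without stimulation and was called in neither comparison.

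Among 9 chaperone and trafficking genes, Nrros, which binds Toll-like receptors in the endoplasmic reticulum, was called lower in the knockout-labelled libraries (log2 difference -0.11, limma adjusted p = 0.0400), and 0 were called higher. Hsp90b1 and Cnpy3, which take part in folding these receptors, had log2 differences of 0.017 and 0.028 (limma adjusted p = 0.845 and 0.803). With stimulation Cnpy4 was called lower (log2 change -1.30, limma adjusted p = 2.37e-08). Among 9 genes for receptor processing and for digestion of nucleic acids, Rnaset2b (-0.29, limma adjusted p = 0.000438) and Lgmn (-0.17, limma adjusted p = 0.0267) were called lower between genotypes. Rnaset2b has a close copy, Rnaset2a (5.04 to 7.95 FPKM after stimulation), so the split of reads between them is uncertain. Rnaset2b encodes a ribonuclease and Lgmn an endosomal protease. With stimulation 0 of the 9 were called.

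Of 5 adaptor genes 4 were tested. Pik3ap1, which encodes the adaptor BCAP that links both the antigen receptor and Toll-like receptors to phosphoinositide 3-kinase, was at 164 to 171 FPKM in stimulated wild type and at 210.3 to 222 FPKM in the knockout-labelled libraries. It was called higher between genotypes (log2 difference 0.36, SE 0.024, limma adjusted p = 3.2e-05) and with stimulation (log2 change 1.65, limma adjusted p = 5.88e-11). Ticam1, the adaptor of TLR3 and TLR4 known as TRIF, was called higher between genotypes (0.23, limma adjusted p = 0.00407). Of 15 kinases and ubiquitin enzymes 1 was called between genotypes, the MYD88-dependent kinase gene Irak2 (log2 difference 0.23, limma adjusted p = 0.00161), and 0 were called with stimulation.

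Genes listed here as restraining the pathway changed in both directions with stimulation. Whether each of them acts as a brake in these cells was not examined. Of 9 such genes 8 were tested. With the minimum size of 1 on the log2 scale, 1 was called higher and 4 lower, where 7.94% and 12.4% of all tested genes were. At an adjusted p under 0.05 alone, Tollip was also higher (log2 change 0.45) and Cyld also lower (-0.71). Tnfaip3, which encodes the ubiquitin-editing inhibitor A20, rose by a log2 change of 2.75 (limma adjusted p = 1.99e-11). Sigirr (-1.62), Lyn (-1.37), Peli1 (-1.18) and Irak3 (-1.01) fell, with limma adjusted p of at most 2.79e-08. Between genotypes Lyn (-0.20, limma adjusted p = 0.00710) and Peli1 (-0.14, limma adjusted p = 0.0300) were called lower. Of 8 transcription factor genes, Nfkb1 (0.21, limma adjusted p = 0.00139) and Irf5 (0.11, limma adjusted p = 0.0313) were called higher between genotypes. Nfkb1 (1.53), Rel (1.46) and Irf8 (1.43) were called higher with stimulation.

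**Figure D5:**
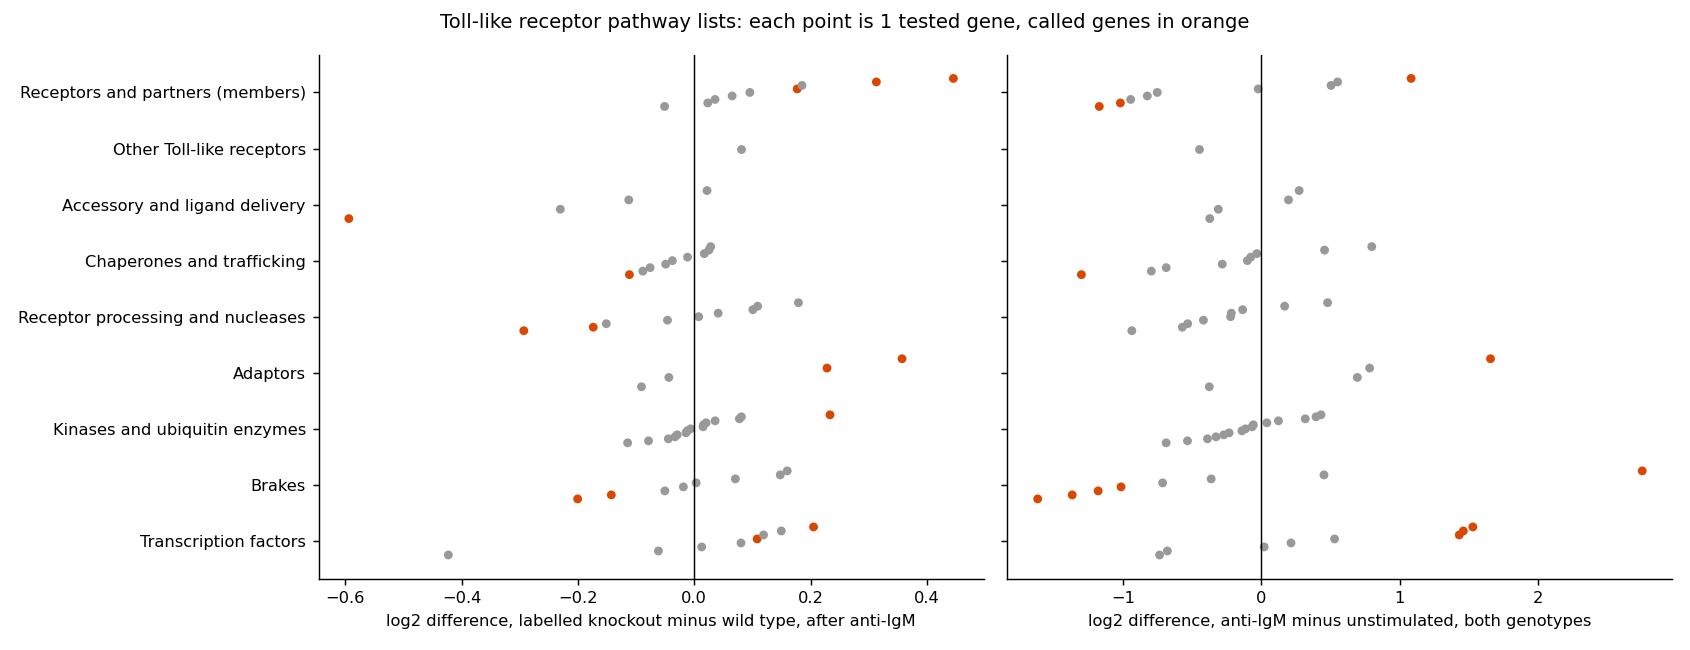
Log2 differences of the tested genes in the 8 pathway lists and of the 9 tested receptor and partner genes, between genotypes after anti-IgM (left) and with stimulation (right). Each point is 1 gene, and orange points were called. Calls lie on both sides of 0 in the left panel, 5 higher and 6 lower among the 58 pathway genes, and Cd36 is the point furthest to the left.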

How the data were processed

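RNA was measured in 10 libraries. The authors deposited 1 table of FPKM per gene and library with 2 decimals; STAR 2.4, RSEM 1.2.14 and the build mm10 are named, without roles, in the submitters' processing notes. Gene models, filters and strandedness of counting are not given in the sources used here. The FPKM carry no totals, so the depth of each library is unknown; they sum to 557214 to 571784 in stimulated libraries and to 595500 and 674961 in the unstimulated knockout and wild-type libraries, so a few abundant transcripts can move all values. All 10 columns matched a sample description.

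Values were transformed as log2(FPKM + 1) and genes averaging 1 FPKM or more were fitted with limma 3.58.1 in R 4.3.3 (eBayes with trend; tested on simulated data). No count model was run. Members, lists and motifs were chosen with earlier results of these data known. Named genes are the 10 members, up to 4 called genes per list, and the 3 genes most like the members with the largest response and the largest genotype difference. Ighd and Ncr1 were not found among the markers. Marker lists covered B, marginal zone, follicular, myeloid, plasmacytoid and conventional dendritic, T, plasma and natural killer cells. Siglech, Cox6a2 and Klk1 of plasmacytoid dendritic cells and Xcr1 and Clec9a of conventional dendritic cells were under 1 FPKM throughout, as were Klrb1c, Gzma and Nkg7 of natural killer cells; the plasma cell list (1046 to 1111 and 1132 to 1191 FPKM in the stimulated genotypes) is dominated by Irf4, which was called higher with stimulation. Lck was the T cell gene above 1 FPKM. Gene positions, overlaps and shared 50-base stretches came from GENCODE M21 (GRCm38). Alternatives were other pseudocounts, filters, scalings and variance models, the letter as a block, and each library left out. An unstimulated library was left out in the stimulation fit alone.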

Additional observations from a re-analysis of the deposited data

Results flagged for a closer look

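The difference in response to anti-IgM between genotypes passed its test for 5 genes (labelled knockout minus wild type, log2 scale): 0.47 for Tlr1, 0.43 for Tlr7, -0.56 for Tlr9, 0.37 for Cd180 and 0.48 for Ly86. The sums of FPKM of the 2 unstimulated libraries on which these values rest were 674961 in wild type and 595500 in the library labelled knockout, and the part of that gap in the 5 differences was not tested beyond the other scalings. In 20 groups of 4 stimulated libraries (each gene in each genotype), 0 held a library far from the other 3, where chance gives about 1 in 20.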

How the results depend on the processing

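Over the alternatives, 534 recomputed values of the 9 tested genes held 482 with the same direction and call, 28 that lost a call, 12 that gained one and 12 that changed sign. The genotype calls of Cd180, Tlr1 and Tlr9 held in 19 of 19 alternatives, and 0 other genes were called in any. Unc93b1 changed sign between genotypes as libraries were left out (-0.019 to 0.064), as did Tlr4 (-0.022 to 0.087). In the response, 1 gene higher and 2 lower became 0 and 1 with a pseudocount of 5 and 3 and 5 with no minimum change. The lower count was 4 with a pseudocount of 0.1, 1 after TPM rescaling, 0 with median-of-ratios scaling, 1 with the letter as a replicate block and 1 with knockout libraries alone. The higher count was 0 with wild-type libraries alone. With 1 library left out, 0 to 1 were higher and 1 to 3 lower, 0 higher and 3 lower without the unstimulated knockout-labelled library and 1 lower without the unstimulated wild-type library or stimulated library D labelled knockout. Of the genes at the edge, Unc93b1 (-1.02) lost its call at -0.78 to -0.997 and Ly86 (-1.17) at -0.93 to -0.94. Myd88 changed sign in the response, to 0.13 (TPM), 0.20 (median-of-ratios), 0.030 (quantile), 0.000875 (replicate block), 0.074 (wild-type libraries alone) and, with 1 library left out, from -0.12 to 0.074. For the difference in response, 4 upward calls became 2 without a filter, 1 after TPM rescaling (with 2 downward, Tlr9 and Myd88), 2 with eBayes without trend and 2 to 4 with 1 library left out (2 without stimulated library D of either genotype). Tlr6 reached -0.077 there after TPM rescaling and -0.0050 to 0.080 with 1 library left out. TPM rescaling also moved Tlr1 in the unstimulated libraries from -0.16 to 0.016. Over all genes, 594 lower calls between genotypes became 377 with median-of-ratios scaling. In the response, 812 higher and 1266 lower calls became 534 and 598 with a pseudocount of 5 and 3188 and 4881 with no minimum change, and the lower calls became 824 among genes averaging 5 FPKM or more and 801 with median-of-ratios scaling. For the difference in response, 427 upward and 1504 downward calls became 177 and 3460 after TPM rescaling, the upward calls 834 without a filter and 873 after quantile normalization, and the downward calls 849 with median-of-ratios scaling and 950 with the replicate block. Same-letter stimulated libraries of the genotypes did not deviate together (r from -0.12 to 0.045). That check cannot say what a letter stands for. As a replicate block the letters left the 3 genotype calls and 3 of the 4 upward calls. The cause of these changes was not tested.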
